A study of Mus musculus with 2 samples.

Results

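Some mouse promoters hold as many CpG dinucleotides as those of genes that run in every cell. Those without a called DNase peak in urinary bladder are described here as closed CpG-rich promoters. A promoter was the window of 500 bases on each side of the 5'-most annotated start of an autosomal protein-coding gene. It was counted as CpG-rich when its CpG ratio, the number of CpG dinucleotides times the window length divided by the product of the C and G counts, was at least 0.75. It was counted as closed when no peak overlapped the window in any of the 4 peak lists, a shorter and a longer list for each of 2 libraries. Of 20807 promoters 5926 were CpG-rich, and 173 of these were closed. That is 2.92% of the CpG-rich promoters, against 53.3% of the 14881 CpG-poor promoters and 39.0% of all promoters. The members were chosen by the absence of peaks in both libraries and by the CpG ratio, so neither is a result, and a closed window here means a window without a called peak.

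In mammals most CpG is methylated and has been lost by mutation, and the stretches that keep it, the CpG islands, are mostly unmethylated and lie at gene starts. Islands at genes needed by every cell are bound by general activators, such as SP1, NRF1 and ETS factors, and are open to nucleases in nearly all tissues. Islands of developmental regulators and of many neuronal genes are instead known as targets of Polycomb complexes in tissues that do not use the gene, and islands of some germ cell genes are methylated in the body. Neither Polycomb marks nor methylation were measured in these libraries.

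DNase-seq finds accessible chromatin from the places where the enzyme DNase I cuts DNA in isolated nuclei. Both libraries came from bladder tissue of 36-day-old male mice of the strain B6CASTF1/J, an F1 cross of C57BL/6J and CAST/EiJ, with no treatment or other group. The labels number the animals separately but give both the same donor identifier, so that the SD over the libraries stands for separate animals only if the numbers do. No p-value is given, because the design holds 1 group and the rule used both libraries. The tissue is a mixture of urothelium, smooth muscle, stroma, vessels, nerves and immune cells, and a window open in few cells cannot be told apart from one weakly open in many. The shorter lists held 38674 peaks in replicate 1 and 47661 in replicate 2, and the longer lists 63793 and 79598. The read depth of the libraries is unknown. The start windows of urothelial marker genes had a peak in the shorter list for 6 of 8 in replicate 1 and all 8 in replicate 2, among them the uroplakin genes Upk1a, Upk1b, Upk2 and Upk3a. Of 4 smooth muscle markers 1 had such a peak in each replicate (Myh11), and of 5 neuronal markers 1 (Nefl, a neurofilament gene).

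The 200 bases upstream of the start are shown for a member from each of 3 gene lists, the one with the highest CpG ratio that could be shown, and for an open proteasome promoter chosen in the same way. Each CpG is in capitals. All are from the mm10 build, touch no annotated exon, and read 5′ to 3′ on the strand of the gene, the last base lying next to the start. Barhl2 encodes a homeobox factor of developing neurons, and its stretch (chr5:106458167-106458366, minus strand) has 27 CpG and 74.5% GC.
Barhl2: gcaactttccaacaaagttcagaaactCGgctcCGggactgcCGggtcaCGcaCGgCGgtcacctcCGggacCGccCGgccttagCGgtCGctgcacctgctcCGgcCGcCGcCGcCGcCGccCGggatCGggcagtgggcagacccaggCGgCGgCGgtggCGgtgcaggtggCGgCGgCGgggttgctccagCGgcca
Gabbr2 encodes a subunit of the GABA-B receptor, the inhibitory receptor of neurons coupled to G proteins, and its stretch (chr4:46991874-46992073, minus strand) has 33 CpG and 81.5% GC.
Gabbr2: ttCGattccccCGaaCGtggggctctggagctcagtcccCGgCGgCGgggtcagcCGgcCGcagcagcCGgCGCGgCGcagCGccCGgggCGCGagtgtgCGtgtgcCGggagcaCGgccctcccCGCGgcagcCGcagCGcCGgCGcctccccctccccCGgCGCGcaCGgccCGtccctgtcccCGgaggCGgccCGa
Tcfl5 encodes a bHLH factor of spermatocytes, and its stretch (chr2:180642709-180642908, minus strand) has 15 CpG and 70.0% GC.
Tcfl5: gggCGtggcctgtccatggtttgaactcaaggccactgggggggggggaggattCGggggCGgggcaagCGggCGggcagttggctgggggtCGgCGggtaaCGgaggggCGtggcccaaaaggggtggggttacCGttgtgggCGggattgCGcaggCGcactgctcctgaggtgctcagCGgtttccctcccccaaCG
Psmc1 encodes an ATPase subunit of the proteasome, and its open promoter (chr12:100109954-100110153, plus strand) has 9 CpG and 42.5% GC.
Psmc1: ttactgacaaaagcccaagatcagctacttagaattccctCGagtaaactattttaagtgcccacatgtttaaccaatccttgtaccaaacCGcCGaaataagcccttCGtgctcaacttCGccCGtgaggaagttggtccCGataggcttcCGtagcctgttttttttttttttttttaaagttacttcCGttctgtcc
Over the whole windows of 1001 bases the CpG ratios are 1.07 for Barhl2, 0.922 for Gabbr2, 0.906 for Tcfl5 and 0.932 for Psmc1. The ratio of the open promoter lies between those of the closed ones, although its upstream stretch holds fewer CpG and less GC than the other 3. These examples do not stand for their classes. The window of Psmc1 holds 59 CpG, against a median of 84 for open CpG-rich promoters. Those of Barhl2, Gabbr2 and Tcfl5 hold 116, 131 and 110, against a median of 88 for members.

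The share of promoters without a peak was lower in each higher bin of the CpG ratio up to 0.85, and closed promoters were rare above the limit. It was 97.4% at ratios below 0.05, 11.2% from 0.6 to 0.65, 5.87% from 0.7 to 0.75 and 3.96% from 0.75 to 0.8. Between 0.8 and 0.95 it lay between 2.7% and 3.14%, and at 1.05 to 1.1 it was 1.0%, or 1 promoter of 100, Barhl2. The members just above the limit were Nrg1 (0.752), Slc25a31 (0.753), Pcsk2 (0.754), Dlx6 (0.754) and Htr6 (0.755). The closed promoters just below it were Gm10715 (0.749), Pcdha6 (0.749), Wnt3a (0.748), Dmrta2 (0.748) and Drd5 (0.747).

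**Figure D1:**
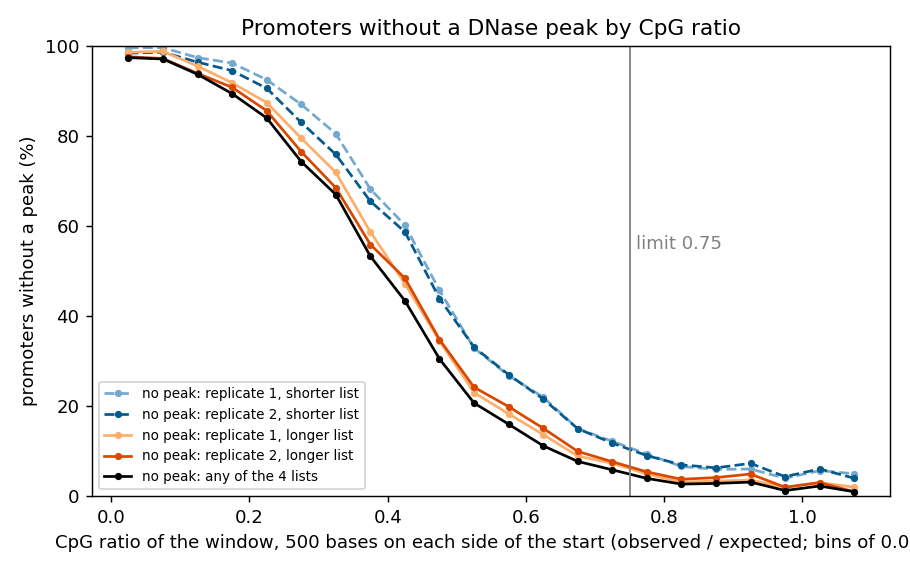
Percent of promoters without a peak (vertical axis) in bins of 0.05 of the CpG ratio (horizontal axis), for each of the 4 peak lists and for all 4 together. All 5 lines run from above 97% at the left to 5.0% or less at the right, and to the right of the limit of 0.75 the line for all 4 lists stays below 4%.

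How many promoters were closed depended on the list. In the shorter lists 401 (6.77%) CpG-rich promoters had no peak in replicate 1 and 418 (7.05%) in replicate 2 (409.5 ± 12.02, SD, n = 2). In the longer lists the numbers were 211 (3.56%) and 247 (4.17%), or 229.0 ± 25.5 (SD, n = 2). Both shorter lists together left 333 (5.62%), and 160 of these had a peak in a longer list, 79 of them in both longer lists. These 160 weakly called promoters lie outside the rule. They held 22 developmental transcription factors and 29 genes of the neuronal lists, which make up 2.38% and 2.18% of all CpG-rich promoters. Among the members the order was the reverse, with 39 developmental factors and 22 neuronal genes.

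Many closed CpG-rich promoters belonged to transcription factors of development. All the gene lists were chosen with earlier results of these data known, so their shares describe the members and are no test. The lists of homeobox and of other developmental factors together held 39 of the 173 members (22.5%), against 2.38% of all CpG-rich promoters. Of the 141 CpG-rich promoters on these lists 27.7% were closed, set against the 2.92% of all CpG-rich promoters. For homeobox genes it was 25 of 65 (38.5%), and for forkhead, SOX, T-box, bHLH and zinc finger factors 14 of 76 (18.4%). The replicates were close to each other in this count, with 48 of the 141 closed in the longer list of replicate 1 and 46 in that of replicate 2. Among CpG-poor promoters the share of developmental factors without a peak was 56.9%, near the 53.3% of all CpG-poor promoters.

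Genes of the neuronal lists were a further large class. These lists go by gene symbol and family, not by expression in neurons. The 5 neuronal lists (ion channels, transmitter receptors, synapse, axon guidance and neuropeptides) held 22 members (12.7%), against 2.18% of all CpG-rich promoters, and 17.1% of their 129 CpG-rich promoters were closed. The 22 were 7 of 33 channel genes (21.2%), 4 of 21 transmitter receptor genes (19.0%), 6 of 39 synapse genes (15.4%), 3 of 32 guidance genes (9.38%) and 2 of 4 neuropeptide genes. The replicates differed more here than for the developmental factors, with 28 closed in the longer list of replicate 1 and 40 in that of replicate 2. In the shorter lists the numbers were 59 and 59. Among CpG-poor promoters 52.2% of the neuronal genes were closed, near the 53.3% of all.

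The lists of ribosomal, respiratory and proteasome genes had no member. None of 52 CpG-rich promoters of ribosomal protein genes, of 38 of respiratory chain and ATP synthase genes or of 17 of proteasome genes was closed, in the 4 lists together or in any of them alone. Under other definitions 2 of 137 were closed with windows of 250 bases on each side, 2 of 160 with a ratio limit of 0.65, and 1 of 107 with the stronger 50% of the shorter lists. The CpG-poor promoters of the same genes were closed in 20.2% of 104 cases. Zinc finger genes of the Zfp, ZBTB and ZSCAN families were closed in 3 of 116 cases (2.59%), near the share over all CpG-rich promoters.

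**Figure D2:**
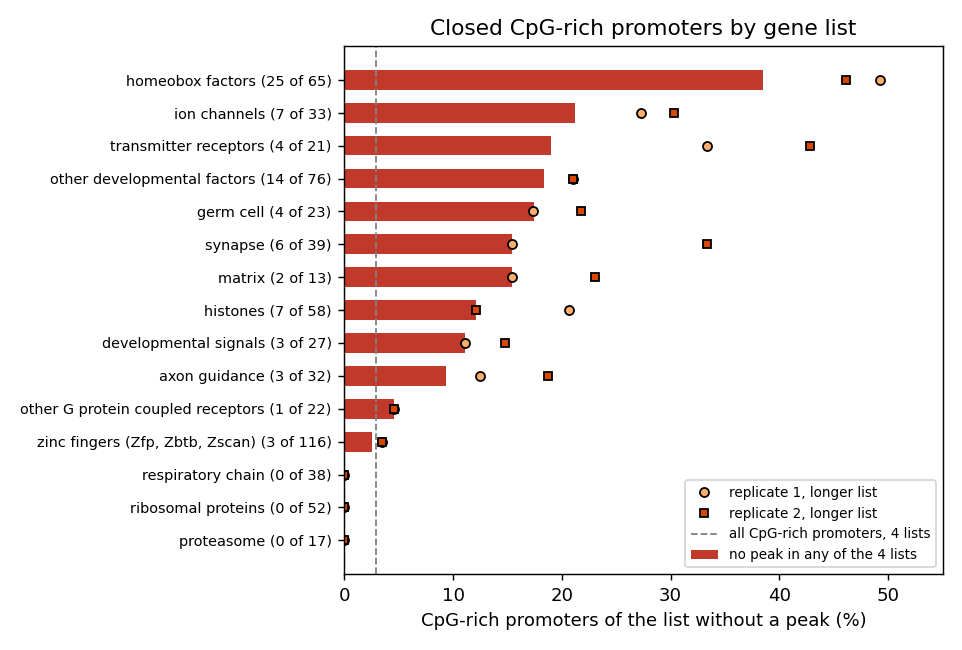
Bars give the percent of the CpG-rich promoters of each gene list that had no peak in any of the 4 lists, with the number closed and the number CpG-rich beside the list name. Circles and squares give the percent without a peak in the longer list of replicate 1 and of replicate 2, and the dashed line marks the 2.92% of all CpG-rich promoters. Homeobox factors stand at 38.5%, while ribosomal, respiratory and proteasome genes stand at 0.

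The 18 lists covered 85 of the 173 members, and each member was also given 1 of 9 roles by hand from general knowledge of the gene, after the members had been seen. By these roles there were 41 developmental regulators, 16 channels, receptors or transporters of neurons, 29 other neuronal or glial genes, 6 secreted signals, 7 germ cell genes, 7 histone genes, 8 adhesion or matrix genes, 45 other genes and 14 genes whose symbol names no function. Neuronal and glial roles together numbered 45, and with the developmental ones 86 of the members. These roles describe the members and were given to no other promoter, so they carry no comparison.

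Among the homeobox members most are known from the nervous system and from head, limb or muscle patterning. Barhl2 had the highest CpG ratio of all members (1.07), and the peak nearest to it lay 116016 bases away in replicate 1 and 116005 in replicate 2. Pou4f1, a factor of sensory neurons, had a ratio of 1.02 and nearest peaks at 54542 and 53519 bases. Irx1, an Iroquois patterning factor, was the homeobox member farthest from a peak, at 505023 bases in replicate 1 and 314511 in replicate 2. Otx2, a factor of forebrain and eye, followed at 227319 and 227379 bases. The other homeobox members were Barx1, Cdx1, Dlx2, Dlx6, Dmbx1, En1, Evx2, Hmx1, Hmx3, Hoxc12, Hoxd13, Irx4, Lbx1, Lhx1, Lmx1b, Mnx1, Nkx1-1, Onecut1, Pou3f2, Six2 and Uncx, named here to complete the list. Their nearest peaks ranged in replicate 1 from 2627 bases (Hmx3) to 133278 bases (En1), and in replicate 2 from 2635 bases (Lhx1) to 130526 bases (Pou3f2), where En1 lay at 15700 bases.

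The 14 other developmental factors were mostly bHLH, forkhead and SOX genes. Bhlhe23 had the highest ratio of them (0.943), with nearest peaks at 2721 and 2661 bases. Insm1, a zinc finger factor of neuroendocrine cells, had a ratio of 0.934 and nearest peaks at 193200 bases in both replicates. Sim1, a factor of hypothalamic neurons, lay 301774 bases from a peak in both, and that peak was at the start of Ascc3. The other 11 were the proneural genes Neurog1 and Neurog2, Olig2 of the oligodendrocyte lineage, Sim2, the forkhead genes Foxd3, Foxe3 and Foxl1, Sox1, Sox18, Zic2 and Tbx21, the master factor of type 1 helper T cells. Sox18 is known from endothelium and Tbx21 from lymphocytes, both present in bladder, and neither had a peak in the window, with nearest peaks at 7298 and 3917 bases for Sox18 and at 11721 and 11704 bases for Tbx21.

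Of the 39 closed developmental factors 10 had another factor of these lists within 50 kb of their start, and for 7 of them at least 1 such neighbour was open. Over all factors of these lists 102 of 141 CpG-rich promoters were open, and 148 of 260 CpG-poor ones were closed. The same count around open factors is not given, so it shows nothing particular to the members. At the Hoxd cluster Evx2 and Hoxd13, the most posterior genes of the row, were both members, and the CpG-poor promoters of Hoxd12 and Hoxd11 were closed too. Hoxd10 and Hoxd9 had a peak in the shorter list of replicate 2 and in both longer lists, and Hoxd8 and the genes after it had peaks in all 4 lists, so the change from closed to open fell between Hoxd11 and Hoxd8. Of 39 genes of the 4 Hox clusters 11 were CpG-rich and 2 were members, Hoxc12 and Hoxd13. The row around Hoxc12 did not follow the order seen at Hoxd. Hoxc13 and Hoxc11 had a peak in the longer list of replicate 2 alone, and Hoxc10 had peaks in all 4 lists. Hoxc9 and Hoxc5 were closed. Hoxa13 had peaks in both shorter lists. Foxl1 lay 11769 bases from Foxc2 and 43554 bases from Foxf1, both of which were open in all 4 lists. Foxe3 lay 17140 bases from the open Foxd2, which had 2 peaks in each list. Dlx5, 18751 bases from Dlx6, had peaks in both longer lists and in neither shorter list, and Dlx1, 18641 bases from Dlx2, had none. Hmx2 beside Hmx3 and Zic5 beside Zic2 were closed, CpG-poor promoters. These pairs were taken from all developmental factors within 50 kb of a member.

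Among channels, Cacna1i, a low-voltage-activated calcium channel, had a ratio of 0.951 with nearest peaks at 2321 and 2309 bases. Kcnj12, an inward rectifier of potassium current, had a ratio of 0.922 and lay 68464 bases from a peak in both replicates. Also closed were Hcn2, Kcnj4, Kcnk9 and Kcnk15. Among receptors, Gabbr2 lay 28834 and 28838 bases from a peak, Grid1, a receptor of the glutamate receptor family, 9108 and 9068 bases, and Htr6, a serotonin receptor, 10631 and 10613 bases. Grin2a, an NMDA receptor subunit, lay 1589 and 1599 bases from a peak that was at another annotated start of Grin2a.

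Transporters and presynaptic genes were closed for more than one transmitter. Slc18a3 loads acetylcholine into vesicles, Slc32a1 loads GABA and glycine, and Slc6a11 takes up GABA. Slc6a11 lay 41372 and 41341 bases from a peak. Slc18a3 lay 48571 bases from one in replicate 1 and 2851 in replicate 2. Slc18a3 sits inside the locus of Chat, the gene of acetylcholine synthesis, whose own start 1139 bases away was CpG-poor (0.342) and also closed. The other synapse members were Lrfn1 (ratio 0.831), Dlgap2 (0.813) and Elavl3 (0.787). In guidance, Epha8, an ephrin receptor, had a ratio of 0.882 and lay 24595 and 24665 bases from a peak, Gdnf, a survival factor of neurons, 2065 and 2035 bases, and Draxin 9343 and 9403 bases. The neuropeptide list gave Penk, the precursor of enkephalins, at 1379 and 1362 bases, and Pcsk2, a prohormone convertase, at 291165 bases in both replicates.

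The other neuronal and glial members, outside the lists, included the RNA-binding factors Rbfox1 and Msi1, the cell recognition genes Dscam, Lingo1, Igsf21 and Csmd2, the brain chromatin remodeller Chd5, and Ugt8a, an enzyme of myelin lipid synthesis. Csmd2 lay 374837 and 260986 bases from a peak and Ugt8a 425144 and 72782 bases. These genes were named after their values were seen.

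Few of the members were secreted signals. The list of developmental ligands and inhibitors made up 1.73% of the members, against 0.456% of all CpG-rich promoters. Of its 27 CpG-rich promoters 3 were closed (11.1%), against 2.92% of all. These were Rspo1, an activator of WNT signalling (43150 and 27141 bases from a peak), Gdf7, a BMP ligand (4707 and 4719 bases), and Ihh, a hedgehog ligand (2593 and 2552 bases). The neuregulins Nrg1 and Nrg3, ligands of ERBB receptors, were members outside that list. Nrg3 was the member farthest from any peak, at 1318671 bases in replicate 1 and 1258893 in replicate 2.

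Germ cell genes, by a list chosen with earlier results known, were closed in 4 of 23 cases (17.4%), against 2.92% of all CpG-rich promoters. Besides Tcfl5, with nearest peaks at 14850 and 14801 bases, these were Hsf5, a heat shock factor family member of spermatocytes (12813 and 21404 bases), Slc25a31, the ADP/ATP carrier of sperm (36466 and 36486 bases), and Fkbp6, a gene of meiosis (7663 and 7653 bases). Among CpG-poor promoters 74.1% of the germ cell list was closed, against 53.3% of all. Of the cadherin list 3 of 7 were closed, the planar polarity genes Celsr1 and Dchs1 and the hair cell gene Pcdh15. Of 58 histone promoters 7 were closed (12.1%), with 12 closed in the longer list of replicate 1 and 7 in that of replicate 2. Of 13 matrix genes 2 were closed, Bcan, a proteoglycan of brain matrix, and Fbn2, a fibrillin. The orphan receptor list gave 1 of 22, Gpr12, and the clustered protocadherins 1 of 2, Pcdhga11. Zfp536, Zfp541 and Zfp804a were the zinc finger members. Zfp536 had the second-lowest GC of all members, 44.1%, beside the highest of 79.4% and a median of 66.6%.

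Some closed windows hold sequence that also occurs elsewhere in the genome, the histone genes among them. The share of 36-base stretches of a window that occur once in the genome was below 90% for 22 members, or 12.7%, against 5.65% of the open CpG-rich promoters. It was 0 for 13 members, and these were all the CpG-rich promoters without a unique 36-mer: 13 of 13 were closed. All 7 histone members were among the 22, with 0% unique for Hist1h2ao, Hist1h2ap, Hist1h2bq and Hist1h2br, 3.73% for Hist2h3c1 and Hist2h3c2 and 72.2% for Hist1h2ab. Srp54b and Srp54c had windows identical in 1001 of 1001 bases, as had Entpd4 and Entpd4b. None of the developmental or neuronal members was below 90%. Whether reads were discarded at these copies was not tested, since the deposited files hold no alignments. Leaving the 22 out gives 151 members (2.71% of CpG-rich promoters with at least 90% unique), of which 25.8% were developmental factors and 14.6% in the neuronal lists.

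The nearest peak of the shorter list lay at a median distance of 15311 bases from the start of a member in replicate 1 and 11834 in replicate 2 (13572.5 ± 2459 bases, SD, n = 2). For open CpG-rich promoters the next peak outside the window lay at 10930 and 8017 bases, and for closed CpG-poor promoters the nearest lay at 32975 and 26265.5 bases. In each replicate the members therefore lay between these classes, above the open CpG-rich promoters and below the closed CpG-poor ones, and the ranges over the replicates do not overlap. With 2 libraries no test of this order was made. Members without a peak within 100 kb made up 16.2% in replicate 1 and 13.9% in replicate 2, against 3.42% and 2.21% of open CpG-rich promoters and 31.0% and 27.2% of closed CpG-poor ones. At the other end, 28.3% and 31.8% of members had a peak within 5 kb. The shares were 36.9% and 41.6% for the next peak of open CpG-rich promoters and 15.7% and 17.9% for closed CpG-poor ones.

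**Figure D3:**
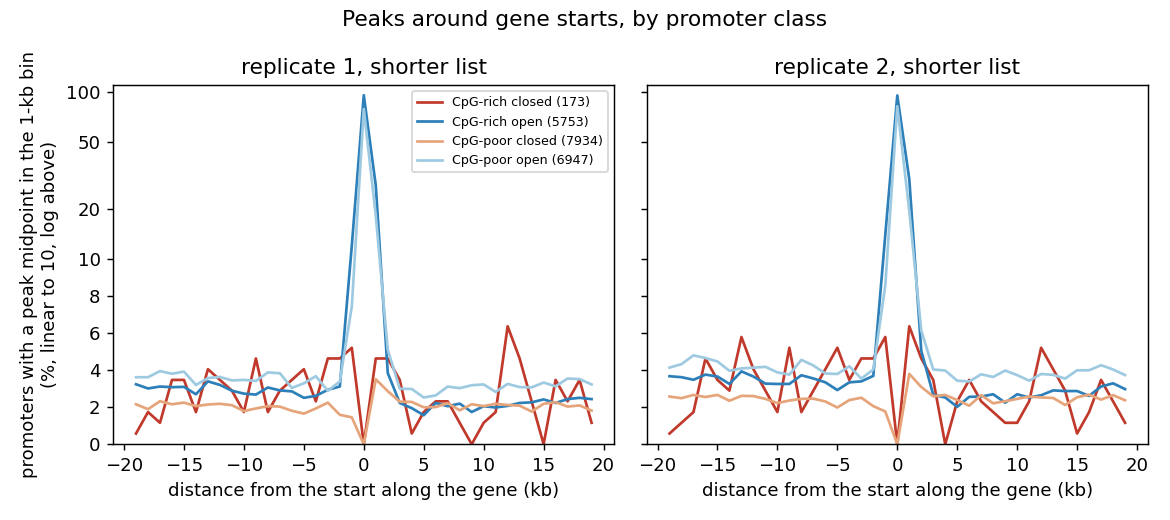
Percent of promoters with the midpoint of a shorter-list peak in each 1-kb bin (vertical axis, linear up to 10 and logarithmic above) by distance from the start along the gene (horizontal axis, kb), for the 4 promoter classes, replicate 1 at the left and replicate 2 at the right. At the start itself open CpG-rich promoters reach 95.4% and 95.1% and closed ones 0 by the rule, while away from the start the members' line scatters between 0 and 6.36%.

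Closed developmental factors stood farther from peaks than open ones. The median distance was 34017 bases in replicate 1 and 16613 in replicate 2 for the 39 closed factors, and 6653 and 5958.5 for the 102 open CpG-rich ones. Distal peaks, those away from every annotated start, numbered on average 1.26 and 1.64 within 50 kb of a closed factor and 2.77 and 3.18 near an open one. Neuronal genes had the opposite order: 9225.5 and 5292.5 bases for the 22 closed, and 12633 and 13314 for the 107 open ones, with 1.91 and 1.95 distal peaks near closed and 1.56 and 1.79 near open promoters. The difference between the gene classes was not tested. Over all members the mean was 1.60 and 1.90 distal peaks, close to the 1.65 and 2.21 of open CpG-rich promoters. Members also lay farther from other genes, with a median of 42100 bases to the nearest start of another protein-coding gene against 23084 for open CpG-rich promoters.

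The nearest peak was most often a distal site. This held for 112 members in replicate 1 and 120 in replicate 2, while the peak was at the start of another gene for 57 and 48 and at another start of the same gene for 4 and 5. It lay upstream of the gene for 96 and 102 members, in the gene body for 33 and 35 and downstream for 44 and 36. The side was counted for no other promoter class, so this split shows nothing particular to the members. Peaks at another gene made up 32.9% and 27.7%, against 35.7% and 30.0% of the next peaks of open CpG-rich promoters. The height of the nearest peak had a median percentile of 50.3 among the peaks of replicate 1 and 42.8 among those of replicate 2, where that of the next peak of open CpG-rich promoters ranked at 50.3 and 50.8. Height is the authors' own value for each peak and was used for this rank within a list.

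After Nrg3 the farthest were Gm43517 (1130394 and 1159767 bases), Ralyl, an RNA-binding gene of brain (909946 and 909966 bases), Irx1, Gm21863 (242054 and 510176 bases, with 43.0% of its 36-mers unique), Galnt13 (350597 and 350577 bases) and Csmd2, followed by Sim1, Nrg1 and Pcsk2. Nearest to a peak were 4930535I16Rik (542 bases in both), B430218F22Rik (551 bases in both), Fam19a5 (582 and 562 bases), Tcerg1l (659 and 666 bases) and Kcnj4 (820 and 824 bases). The peaks beside 4930535I16Rik and B430218F22Rik stood at the starts of Rragc and Mrps30, which lie 576 and 622 bases from those of the members. Most distal peaks within 50 kb were found for Sfi1, with 10 in each replicate, and Ppm1n, with 9 in each. Cabp7 had the most CpG in its window, 153, and 3 and 7 distal peaks.

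**Figure D4:**
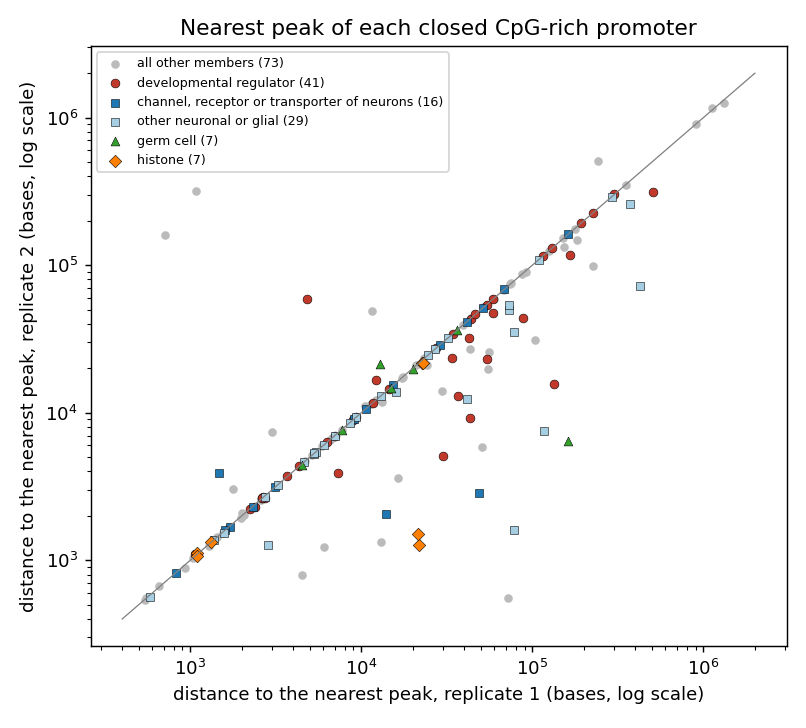
Distance in bases from each of the 173 starts to the nearest peak of the shorter list in replicate 1 (horizontal axis, log scale) and replicate 2 (vertical axis, log scale), with colours and shapes for roles and the grey line for equal distances. Most points follow the line, and 10 lie more than 10-fold off it, 7 of them below.

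The replicates placed the nearest peak at the same site for most members. The 2 nearest peaks overlapped for 111 members (64.2%), and the distances were within 10% of each other for 120 (69.4%). They differed by over 10-fold for 10, of which 7 were nearer in replicate 2, the library with more peaks. The larger distance was in replicate 1 for Crmp1 (78531 against 1595 bases), Gsg1l (117342 against 7513), Slc18a3, Rbmxl2 (161136 against 6403), Hist1h2ap (21834 against 1269), Hist1h2br (21598 against 1505) and Srp54c (72433 against 553). It was in replicate 2 for Foxd3 (4822 against 59162 bases), March11 (713 against 161131) and Pcdh15 (1082 against 320699). Hist1h2ap, Hist1h2br and Srp54c have no unique 36-mer.

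Signal without a called peak was present in a few closed windows. Stretches of bases with a deposited per-site FDR, the false discovery rate of each base, of at most 0.05 fell in the window of 10 members in replicate 1 and 14 in replicate 2, 19 in either and 5 in both. That was 5.78% and 8.09%, against 1.51% and 2.05% of closed CpG-poor windows and 99.5% and 99.1% of open CpG-rich ones. The 5 in both were 4930535I16Rik (630 and 674 bases), B430218F22Rik (596 and 643), Kcnj4 (133 and 16), Fam19a5 (83 and 35) and Msi1 (25 and 22). The first 2 stand apart: their lowest FDR was 3.77e-23 and 2.69e-17 in replicate 1, far below the 0.001 of the shorter list. They are also the members with the nearest peaks, just outside the window, so their windows held accessible bases without a called peak. Fam19a5 had a lowest FDR of 7.18e-06 in replicate 1, also below 0.001, and 1.05e-02 in replicate 2. The other members with such bases in 1 replicate had at most 63, in Ripply2. Among developmental factors these were Dlx2, Insm1, Foxe3, Onecut1, Tbx21 and Six2. A footprint, a short protected stretch within an accessible site, fell in no window in replicate 1 and in 1 in replicate 2, that of Srp54c. These signals come from the same reads as the peaks, so they do not stand as separate evidence.

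A closed 5'-most start did not always mean a gene without an open start. Another annotated start had a peak within 500 bases in any list for 20 members (11.6%), and in both shorter lists for 12 (6.94%). In the longer lists the share was 10.4% in each replicate, near the 12.7% and 13.0% of closed CpG-poor promoters. Open CpG-rich promoters stood at 78.8% and 79.0%, where another start can lie beside the same peak. Among the 12, Tjp1, the tight junction gene ZO-1 expressed by epithelia, had an open start 156766 bases from the closed one, and Nrg1 one 874920 bases away. Lhx1 had one 3204 bases away, Grin2a 1290, Plk5 1518, Arhgef7 30596, Lingo1 160840 and Fam19a5 80931. Tjp1, Nrg1 and Lhx1 had 2, 5 and 2 such starts in each shorter list, and the distance given is to the farthest. For Arhgef7, with 3, it is to the nearest. Members had fewer starts to choose from than open CpG-rich promoters, with a median of 2 against 5, and 39.3% had a single annotated start against 11.1%. Closed CpG-poor promoters also had a median of 2 starts, and open CpG-poor ones 4, so few starts are not particular to the members. Leaving out genes with an open start elsewhere gives 153 members.

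The sequence of the closed windows was close to that of the open ones in general measures. The median GC was 66.6% in members and 63.0% in open CpG-rich promoters, the median CpG number 88 and 84, the median CpG ratio 0.830 and 0.852, and the median length of the CpG island over the start, found with a GC of at least 50% and a ratio of at least 0.6 in sliding 200-base windows, was 960 bases in both. Repeats covered a median of 6.79% and 6.29%. Both classes were chosen by the same limit of the CpG ratio, so their likeness in the ratio is no result. The GC content, CpG number and island length follow in part from the rule.

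Short motifs of general activators were searched as exact letters on both strands, in the 250 bases before to 50 after the start. A match is a description of the letters, not of a bound factor. The ETS letters CCGGAAG were in 9 member windows (5.2%), against 19.6% of open CpG-rich windows and 11.0% of all windows. Those 9 were at Dscam, En1, Fkbp6, Gm3417, Gm3435, Gprin1, Mterf1b, Papolb and Sfi1, so that En1 was the single developmental factor and no gene of the neuronal lists held it, while Dscam and Gprin1 are neuronal by role. In the full 1001 bases the ETS letters were in 9.83% of members, 33.3% of open CpG-rich windows and 19.5% of all. The letters of a YY1 consensus were in no member and in 1.86% of open CpG-rich windows, and in 0.779% of all. Those of the palindromic NRF1 consensus were in 1.73%, 2.9% and 1.25% of the same classes. SP1 and KLF letters GGGCGG were in 71.7% of members, 74.9% of open CpG-rich and 43.7% of all windows, and NF-Y letters CCAAT in 32.9%, 36.5% and 38.6%. TATAAA was in 7.51%, 5.61% and 12.7%, with Cdx1, Dlx6, Evx2, Hoxc12, Hoxd13 and Sim1 among the 13 members. Core letters of the neuronal repressor REST were in 2 members over the 1001 bases, Gjd2 and Neurog1 (1.16%), against 2.97% of open CpG-rich windows and 2.47% of all.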

How the data were processed

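Per the labels, DNase-seq libraries of mouse bladder were aligned to mm10. Which aligner and peak caller made them is not given in the sources used here. Per the file headers and the text deposited with the files, each library was processed on its own from filtered alignments and a mappability reference, without pooling. The authors deposited for each library 2 peak lists whose height is a signal with no stated scale, per-site FDR values (p-values adjusted for multiple testing) listed up to 0.05, and footprints that carry a score of 0.01 in every row. From the values, every peak held a base with an FDR of at most 0.001 in the shorter list and 0.05 in the longer. An overlap of 1 base counted. Nearest distances run from the start to the closest base of a shorter-list peak. Sequence came from GRCm38 patch 6, which has mm10 coordinates, and starts from GENCODE M21. Scripts used Python 3.11.15, numpy 2.4.6, pandas 2.3.3 and numba 0.67.0, and were tested on simulated intervals and sequences. The members and lists were chosen with earlier results of these data known.

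Of each list with at least 3 members, the 2 with the highest CpG ratio and the 2 farthest from a peak were named, and over all members those farthest from or nearest to a peak, with the most distal peaks or CpG, or at the ratio limit. Not every such gene is printed, and some are not reported here; others were named after their values were seen. Because 1 group has no condition, values are given for each library, with means ± SD over the 2 replicates. The alternatives tried were other peak lists, windows, CpG limits and overlaps, every start of the gene, a GC minimum, unique 36-mers and leaving out each replicate. The F1 animals carry CAST/EiJ alleles that differ from the reference.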

Additional observations from a re-analysis of the deposited data

How the results depend on the processing

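The number of members, 173, depends on how a closed window is defined. It was 333 with the shorter peak lists alone, 732 with the stronger 50% of those lists, 333 with 250 bases and 51 with 1000 bases on each side, and 362 and 75 with CpG ratio limits of 0.65 and 0.85. The percent of CpG-rich promoters without a peak was 5.62, 12.4, 4.46, 1.8, 4.15 and 2.5 in the same order. The percent of members that were developmental factors was 18.3, 12.2, 16.2, 27.5 and 19.3 under the first 5 of these, and 25.8 among promoters with at least 90% of their 36-mers unique. The percent in the neuronal lists was 15.3 with the shorter lists alone, 13.0 with the stronger 50% (95 members against 89 developmental factors, the reverse of their order among the 173), 7.84 with 1000 bases on each side and 9.33 with a limit of 0.85. The median distance to the nearest peak was 42044.5 bases with the stronger 50%, 10274.5 with 250 bases and 16522 with 1000 bases. Within a fixed set of promoters, fewer peaks or a smaller window leave more closed by construction. With 250 and 1000 bases the CpG ratio was also taken over the new window, so the set of CpG-rich promoters changed too. For the shares of gene classes the cause was not tested. When 1 replicate was left out the number of members ranged from 211 to 245, the percent of CpG-rich promoters from 3.56 to 4.13, the percent of developmental factors from 18.8 to 22.7, that of neuronal genes from 13.3 to 16.3 and the distance from 13050 to 15972 bases. Windows without any base of FDR up to 0.05, an alternative chosen after seeing the data, gave 154 members. In all settings run, a larger share of either gene class was closed than of all CpG-rich promoters of the same setting. The shares were lowest with 1000 bases on each side, at 13.2% of developmental factors and 7.27% of neuronal genes, against 1.8% of all. The settings reuse the same peaks and gene lists, so this is no separate support. No paired analysis was possible because there is 1 group. With unknown depth, a missing peak says that no site was called, not that the promoter is inaccessible in every cell.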
